A study of Drosophila melanogaster with 4 samples.

Results

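The genes described are those of the cytoplasmic ribosomal proteins in follicle cells, the somatic epithelium around the germ line of the Drosophila melanogaster ovary. Members were all genes whose symbol starts with RpL or RpS followed by a digit and whose mean normalised count was above 0. There were 85 of them, 48 with large subunit and 37 with small subunit symbols, among 12650 genes with a mean above 0 and 15682 genes in all. A further 3 symbols that match, RpL10Aa, RpL15 and RpS28a, were listed at 0 and have no fold change. RpL10Aa and RpS28a are second copies of duplicated genes, while RpL15 is not. Whether a 0 reflects absent transcripts or reads lost in alignment or counting was not tested, so it does not show that RpL15 is silent. RNA was sequenced from 2 EGFR-activated libraries, which expressed UAS-EGFR-lambdatop, an EGF receptor that signals without ligand, together with UAS-CD8-GFP, and from 2 Control libraries, which expressed UAS-CD8-GFP alone. Both groups thus carried the membrane-tethered GFP, and the sources used here do not give the driver of the transgenes. Flies of both groups grew up at 18 °C and spent 7 to 10 days as adults at 29 °C. The series' design text calls the replicates biological. The p-values set the difference between groups against the spread among libraries of the same group, with 2 libraries in each. Each mean, fold change, standard error (SE) and adjusted p below is from the authors' deposited table unless another source is named. Fold changes are log2 values of EGFR-activated cells relative to Control cells, and genes with an adjusted p under 0.05 in the authors' DESeq2 Wald test are called changed.

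Each cytoplasmic ribosome is built from a small subunit, which reads the messenger RNA, and a large subunit, which joins the amino acids. Their proteins are needed in equal numbers, so animals make the transcripts of nearly all of them together, and they are among the most abundant in any growing cell. In Drosophila, losing 1 copy of many of these genes gives the Minute phenotype, with slow development and thin bristles. A follicle cell passes from division through endocycles to the secretion of the eggshell, a sequence with a heavy demand for protein synthesis. Most of these genes are single in the fly genome, but some have a second copy, often one known from the germ line.

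The authors' deposited table gives for each gene a mean over the 4 libraries and a fold change. Levels in each group are therefore given as implied by that mean and that fold change, with no spread between replicates. The means summed to 21565892 over all genes. All 14 follicle cell markers were detected, among them tj at a mean of 10707 and Fas3 at 31666. Of these 14, 1 was higher (tj, 7.14%) and 2 were lower (Vml and shg, 14.3%). Beside this and the lists below stand 18.0% of all genes with an adjusted p called higher and 17.5% called lower. The summed implied levels of the 14 were 354249.8 in EGFR-activated cells and 463003 in Control cells. In all, 12 of the 14 lay below 0 and 2 above it, with a median log2 fold change of −0.63. Of 18 muscle sheath markers with a p-value, 12 were lower (66.7%) and 0 higher. All 18 of them lay below 0, with a median log2 fold change of −1.27. Their summed implied levels were 33543 in EGFR-activated cells and 41328 in Control cells, but Tm1 alone made up 79.9% of the summed mean. Without Tm1 the sums were 4947 in EGFR-activated cells and 10112 in Control cells. Of 7 fat body markers with a p-value 3 were lower (42.9%) and 0 higher, and Fbp1 was at 0. The fat body sums were 5736 in EGFR-activated cells and 18083 in Control cells. Of 18 germ line markers 2 were higher (11.1%) and 1 lower (5.56%), with sums of 31707 in EGFR-activated cells and 31954 in Control cells. The lower one, tud, made up 36.9% of that sum, and without it the sums were 22049 in EGFR-activated cells and 18094 in Control cells. Of the 18, 12 lay above 0, with a median of 0.19. Of 7 hemocyte markers 0 passed, with sums of 5719 in EGFR-activated cells and 7689 in Control cells, or 273 in EGFR-activated cells and 338 in Control cells without crq. The part of these cells in the results below was not tested.

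As deposited, ribosomal protein transcripts were higher in EGFR-activated cells. Of the 85 genes 52 rose, 0 fell, 30 did not pass the test and 3 had no adjusted p, against 18.0% of all genes with an adjusted p called higher and 17.5% called lower. Fold changes in this table were larger for shorter genes, and once that trend was subtracted 8 of the 80 members with a length and a mean of 50 or more were higher and 0 lower. That share of 10.0% was no larger than the 11.4% of all genes called higher on this scale (16.8% lower). On the same scale 74 of the 80 lay above 0, against 3903 of 7824 genes, with medians of 0.34 and −0.001. The median deposited log2 fold change was 0.92, against 0.01 over all 12650 genes with a p-value. All 85 members lay above 0 before the subtraction, against 6412 of the 12650 genes with a p-value. At a mean of 50 or more all 80 did, against 4368 of 7887 genes. Of the members 69 had an unadjusted p under 0.05, against 17.1% of all genes higher and 16.1% lower at that p. Under an adjusted p of 0.01 there were 30 higher members, against 11.7% of genes higher and 12.6% lower, and under 0.10 there were 67, against 21.8% higher and 20.3% lower. With p-values adjusted over all 12650 genes 43 were higher (all genes 12.4% higher, 12.2% lower), and with fold changes centred on the median over all genes 42 (12.0% higher, 12.4% lower). Of the 80 members whose mean was 50 or more, 52 were higher, against 20.8% of such genes higher and 18.4% lower. A rise of at least 2-fold was listed for 33 members, each of which passed the test. The share of all genes that rose as much was not counted. The upper quartile of log2 fold change was 0.43 over all genes with a p-value and 0.61 over those whose mean was 50 or more. In bulk RNA a change in the number of cells and a change in RNA per cell cannot be told apart. The transcripts of these genes made up 4.62% of the mean normalised counts of all genes. The share implied by means and fold changes was 6.65% in EGFR-activated cells and 2.89% in Control cells.

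**Figure D1:**
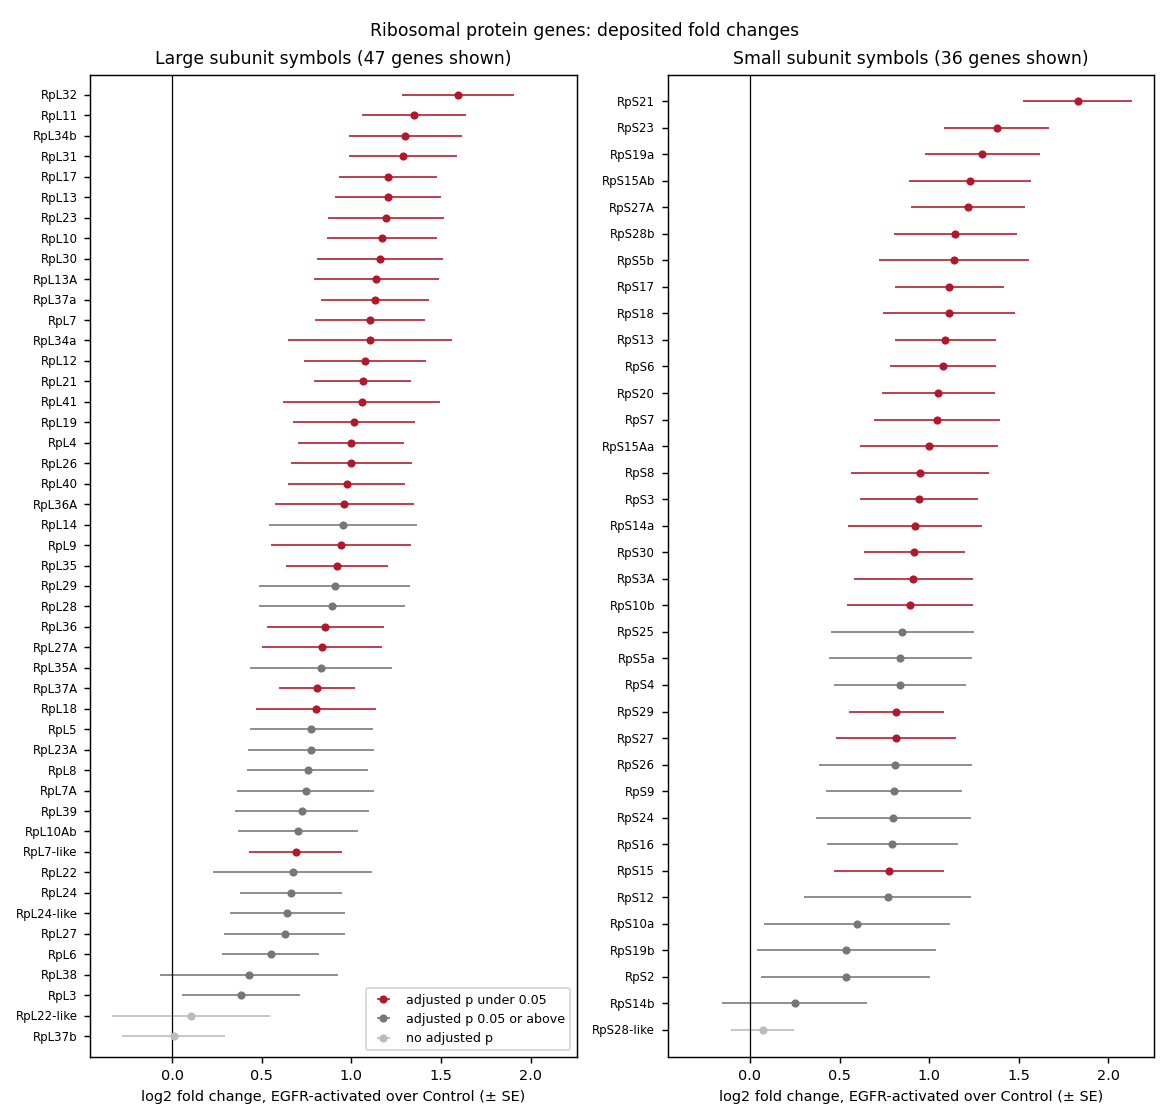
Deposited log2 fold change (x axis, EGFR-activated over Control) of each ribosomal protein gene with its SE as a bar, for 47 large subunit symbols (left) and 36 small subunit symbols (right). Red points passed the test, dark grey points did not and pale grey points have no adjusted p; RpL32 and RpS21 top the panels at 1.59 and 1.83, and all points lie above 0.

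Both subunits showed the change as deposited. Of 48 large subunit genes 29 rose and 0 fell, with a median deposited log2 fold change of 0.93, a range of 0.01 to 1.59 and a median SE of 0.34. Of 37 small subunit genes 23 rose and 0 fell, with a median of 0.91, a range of 0.07 to 1.83 and a median SE of 0.35. The low ends of these ranges belong to RpL37b and RpS28-like, with 3 reads and 1 read in all. At a mean of at least 50 the ranges were 0.39 to 1.59 for the large and 0.25 to 1.83 for the small subunit. Of all genes with an adjusted p, 18.0% were called higher and 17.5% lower. After removal of the length trend 5 of 46 large (10.9%) and 3 of 34 small subunit genes (8.8%) were higher. Neither share was above the 11.4% of all genes called higher on that scale. The subunit medians were 0.02 apart as deposited, with the large subunit higher, and −0.08 apart after removal of the length trend, with the large subunit lower. Without the second copies of duplicated genes, 27 of 43 large subunit genes and 21 of 31 small subunit genes rose, with medians of 0.95 and 0.92. The implied sums of normalised counts gave ratios of 1.94 for the large and 1.99 for the small subunit. These genes were measured in the same libraries, so they are not replicates and the difference between subunits was not tested.

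In the large subunit the highest deposited fold change was that of RpL32, also known as rp49, a gene often used as the reference in fly quantitative PCR. RpL32 had an implied level of 20695 normalised counts in EGFR-activated cells and 6858 in Control cells. It rose by 1.59 ± 0.31 (adjusted p = 5.26e-06), or 3.02-fold. RpL11, RpL34b and RpL31 were also among the 5 highest. RpL11 rose by 1.35 ± 0.29 (adjusted p = 4.2e-05), RpL34b by 1.30 ± 0.31 and RpL31 by 1.29 ± 0.30. The lowest large subunit genes with a mean of at least 100 were RpL3, RpL38, RpL6, RpL27 and RpL24-like, none of which passed. RpL3, whose protein reaches the peptidyl transferase centre, was at 0.39 ± 0.33 (adjusted p = 0.388), with implied levels of 20737 in EGFR-activated cells and 15878 in Control cells. RpL38 was at 0.43 ± 0.50, RpL6 at 0.55 ± 0.27, RpL27 at 0.63 ± 0.34 and RpL24-like at 0.64 ± 0.32.

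Genes of 1 functional region did not all behave alike against the threshold. RpL5 and RpL11 encode the proteins that carry 5S ribosomal RNA into the large subunit. RpL5 had the highest mean normalised count of all members, 51022, and was at 0.78 ± 0.35 (deposited adjusted p = 0.0647), short of the threshold that RpL11 passed. RpL10, which joins the large subunit last and faces the peptidyl transferase centre, rose by 1.17 ± 0.31 (adjusted p = 0.000924), whereas RpL3 from the same region did not pass. The difference between members of a region was not tested. Of 6 genes for proteins around the exit of the nascent chain tunnel, 5 rose. RpL17, RpL19, RpL26, RpL31 and RpL35 were between 0.92 and 1.29, and RpL23A was at 0.78 ± 0.35 (adjusted p = 0.0698).

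In the small subunit RpS21 stood highest. RpS21, known in flies as oho23B for the overgrown hematopoietic organs of its mutants, had implied levels of 3430 normalised counts in EGFR-activated cells and 965 in Control cells. It rose by 1.83 ± 0.31 (adjusted p = 5.6e-08), or 3.55-fold. RpS23, whose protein lies at the decoding site, rose by 1.38 ± 0.29 (adjusted p = 2.89e-05), with implied levels of 40479 in EGFR-activated cells and 15578 in Control cells. RpS19a rose by 1.30 ± 0.32, the duplicate RpS15Ab by 1.23 ± 0.34 and RpS27A by 1.22 ± 0.32 in the authors' deposited table. At the low end RpS14b, RpS2, RpS12 and RpS16 did not pass and RpS15 did. RpS2, which lines the messenger RNA entry and whose mutant string of pearls arrests oogenesis, was at 0.53 ± 0.47 (adjusted p = 0.402), with implied levels of 8133 in EGFR-activated cells and 5618 in Control cells. RpS12, a protein of the beak of the subunit that is known in flies for its role in cell competition, was at 0.77 ± 0.47 (adjusted p = 0.195). RpS16 was at 0.79 ± 0.37, and RpS15, at the decoding site, rose by 0.78 ± 0.31 (adjusted p = 0.0363).

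All 3 genes that encode a ribosomal protein fused to ubiquitin or a ubiquitin-like protein rose as deposited. The share of all genes with an adjusted p called higher was 18.0%. After removal of the length trend 0 of the 3 passed, against 11.4% of all genes higher. RpS27A, the fusion with ubiquitin in the small subunit, rose by 1.22 ± 0.32 (adjusted p = 0.000898), and its exons overlap those of another gene in the annotation. RpL40, the ubiquitin fusion of the large subunit, rose by 0.97 ± 0.33, and RpS30, the fusion with a ubiquitin-like protein, by 0.92 ± 0.28 in the authors' deposited table. RpS3, at the messenger RNA entry, rose by 0.94 ± 0.33 (adjusted p = 0.0156). RpS6, the ribosomal substrate of the S6 kinase, rose by 1.08 ± 0.30 (adjusted p = 0.00163), and the beak gene RpS10b by 0.89 ± 0.35 (adjusted p = 0.0347).

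The spread among members was smaller than the error of a single one. Over the 80 members whose mean was 50 or more, the deposited log2 fold changes had an SD of 0.26, against a median SE of 0.34. Over all 7887 genes with such a mean the SD was 0.81 and the median SE 0.28. The 95% interval of 78 of the 80 members covered their common median of 0.93, and the exceptions were RpS21 and RpL32. That median comes from the same members, and all of them share the 4 libraries. An error common to the members would enter each SE but not the SD among them. These values therefore do not test whether the members changed alike or whether the exceptions differ. At means of at least 1000 the SE of these genes was larger than that of other genes, with a median of 0.34 over 77 members and 0.25 over all 3526 genes. The adjusted p of members near the threshold ran on without a gap. RpL34a, RpL9 and RpL18 lay just inside it (0.046, 0.0461 and 0.0466), and RpL24 and RpL14 just outside it (0.0555 and 0.0585).

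**Figure D2:**
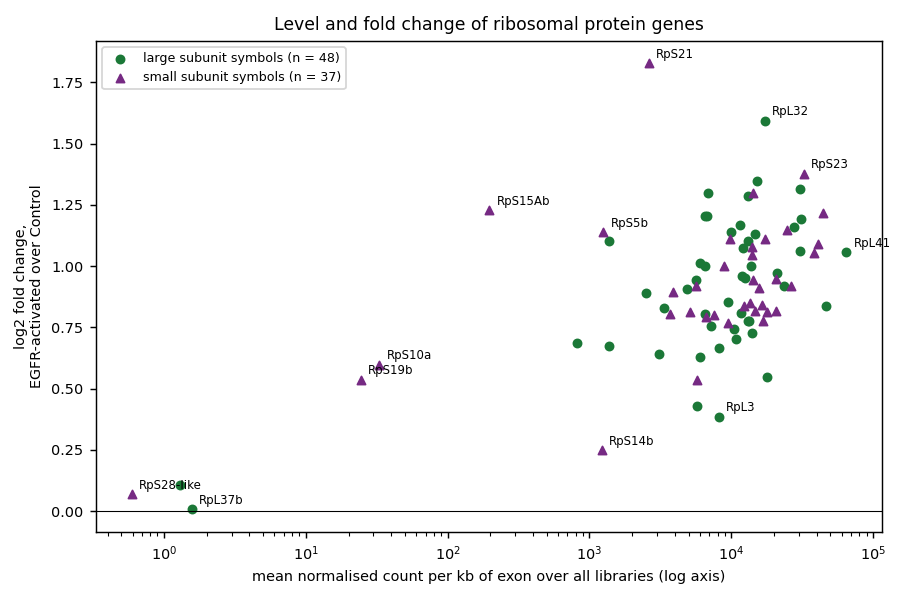
Mean normalised count per kb of exon over all 4 libraries (x axis, log scale) and deposited log2 fold change (y axis) for each of the 85 genes, circles for large and triangles for small subunit symbols. Most members lie above 1000 per kb and between 0.5 and 1.5, while second copies such as RpS10a and RpS19b lie far to the left.

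Transcript levels were compared per kb of annotated exon. Over the same 80 members the level ranged from 197 to 64853 normalised counts per kb, with a median of 11979. RpL41, whose protein of 25 amino acids is the shortest, was highest at 64853 per kb, and RpL27A and RpS27A followed at 46832 and 44176 per kb. The lowest were RpS15Ab at 197 per kb, RpL7-like at 819 per kb and RpS14b at 1220 per kb, each of them a second copy. Among genes that are single or the main copy, RpL22 was lowest at 1364 per kb. Log2 fold change and log2 level per kb had a Pearson r of 0.20 and a Spearman rho of 0.31 across the 80 genes, which share libraries and normalisation. This is given as a description only.

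In 12 families of duplicated genes the copy with the higher mean was taken as the main one. Its lead in mean was thus set by that choice. RpS28-like was set beside RpS28b as well. Where the second copy had a mean of at least 10, the main copy was from 2.64 (RpL24) to 585 (RpS19a) times as high per kb. Second copies that were listed at 0 were RpL10Aa and RpS28a. RpS28-like, RpL37b and RpL22-like had 1, 3 and 7 reads in all 4 libraries together, so no change can be read from their fold changes. Their main copies RpS28b, RpL37a and RpL22 had means of 24072, 19145 and 1500.1. Of the main copies RpS28b rose by 1.15 ± 0.34 and RpL37a by 1.13 ± 0.30, while RpL22 was at 0.67 ± 0.44 (adjusted p = 0.24).

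**Figure D3:**
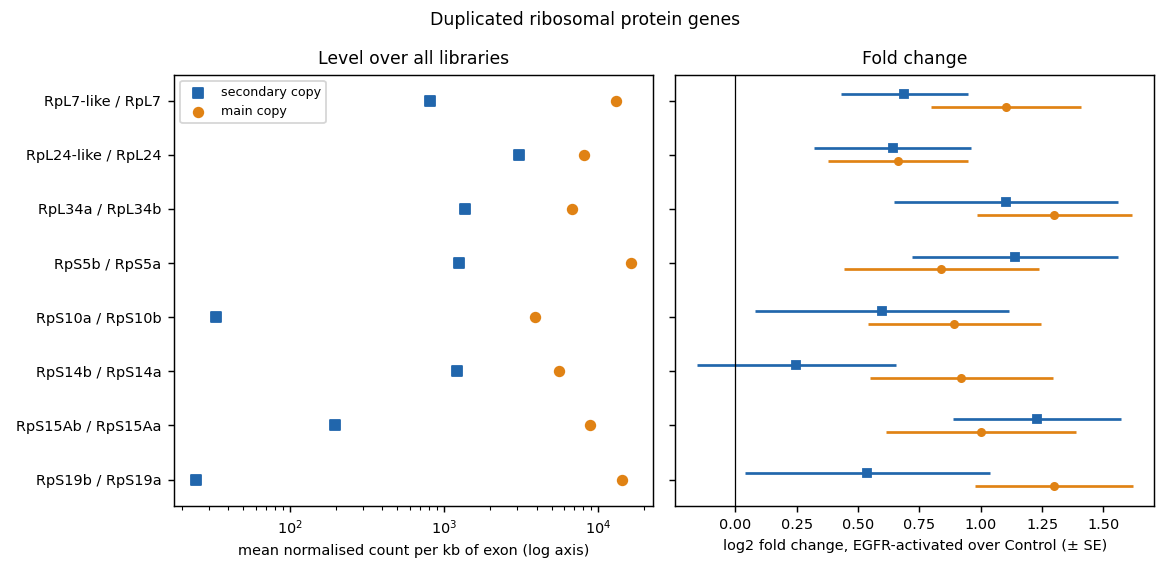
Level over all libraries (left, mean normalised count per kb of exon, log scale) and deposited log2 fold change with its SE (right) of 8 second copies (blue squares) and their main copies (orange circles). Main copies were chosen by their higher mean and are also higher per kb in every pair shown, and the fold changes of the copies overlap within their errors.

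For 8 pairs in which the second copy had a mean of at least 10, the fold changes could be compared. The SE of a difference was taken from the SEs of both copies as if they were independent, although both were measured in the same libraries. In all 8 pairs the 95% interval of the difference included 0, which does not show that the copies changed alike. RpS5b, known from the female germ line, had implied levels of 1639 normalised counts in EGFR-activated cells and 744 in Control cells. It rose by 1.14 ± 0.42 (adjusted p = 0.0222), while its main copy RpS5a, 13.2 times as high per kb, was at 0.84 ± 0.40 (adjusted p = 0.0868). The difference of RpS5b from RpS5a was 0.30 (95% interval −0.83 to 1.43). Germ line markers had a median of 0.19 with 12 of 18 above 0, and their part in this value was not tested. RpS15Ab, an intronless copy, rose by 1.23 ± 0.34 (adjusted p = 0.00193) with implied levels of 199.8 in EGFR-activated cells and 85.3 in Control cells. RpS15Aa, 44.9 times as high per kb, rose by 1.001 ± 0.39, and the difference was 0.23 (−0.78 to 1.24).

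RpS14a and RpS14b lie next to each other on the X chromosome and encode proteins of 151 amino acids each. RpS14b was at 0.25 ± 0.41 (deposited adjusted p = 0.68), with implied levels of 791 in EGFR-activated cells and 666 in Control cells. RpS14a, 4.596 times as high per kb, rose by 0.92 ± 0.37 (adjusted p = 0.0399), and the difference was −0.67 (95% interval −1.75 to 0.41). The counting set aside reads that align to more than 1 place, so what both copies share in sequence is counted for neither, and their levels are uncertain. RpL34a and RpL34b both rose, by 1.10 ± 0.46 and 1.30 ± 0.31, a difference of −0.20 (−1.29 to 0.89). RpS10a and RpS19b, with means of 19.9 and 16.3, were at 0.60 ± 0.52 and 0.54 ± 0.50 and did not pass. Their main copies RpS10b and RpS19a, 118 and 585 times as high per kb, rose. The differences were −0.29 (−1.52 to 0.93) for RpS10a and −0.76 (−1.92 to 0.40) for RpS19b.

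RpL7-like and RpL24-like carry a ribosomal symbol, but their yeast counterparts are assembly factors that hold the place of the ribosomal protein in the pre-ribosome. RpL7-like rose by 0.69 ± 0.26 (deposited adjusted p = 0.0263), with implied levels of 1813 in EGFR-activated cells and 1125 in Control cells. RpL7 itself rose by 1.10 ± 0.31, so that the difference was −0.42 (95% interval −1.201 to 0.37). RpL24-like and RpL24 were at 0.64 ± 0.32 and 0.66 ± 0.29 and neither passed, with a difference of −0.02 (−0.86 to 0.82).

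**Figure D4:**
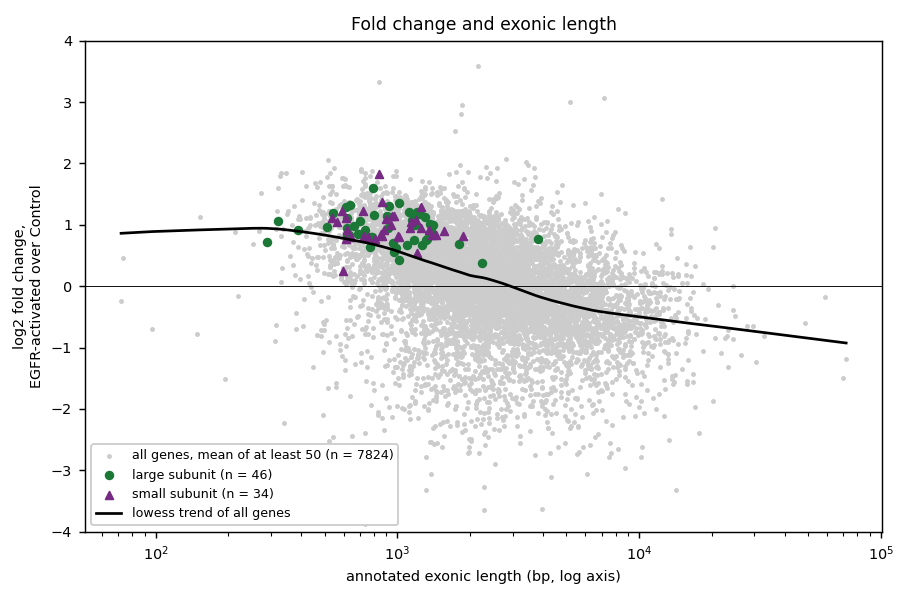
Deposited log2 fold change (y axis) against annotated exonic length in bp (x axis, log scale) for 7824 genes whose mean was 50 or more (grey), large subunit genes (green circles) and small subunit genes (purple triangles); the black line is the trend of all genes. The 80 members sit at the short end, where the trend itself lies well above 0; 4 genes fall outside the plotted range.

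Fold change followed gene length across the whole table, and the members are short. Over 7824 genes of known length whose mean was 50 or more, log2 fold change and log2 exonic length had a Pearson r of −0.39 and a Spearman rho of −0.45. The 80 members among them had exonic lengths of 288 to 3835 bp, with a median of 921.5 bp, against 2202 bp for all genes. Within them the same relation had a Pearson r of −0.16 and a rho of −0.18. A smooth trend of fold change on length over all genes was subtracted and the p-values were recomputed. This left the 8 higher members given above, and a median of 0.34 over all 80, with 5 of 46 large subunit genes higher at a median of 0.34 and 3 of 34 small subunit genes at a median of 0.42. On this scale 74 members stayed above 0 and 6 lay below it, RpL38, RpL39, RpL6, RpL24-like, RpS12 and RpS14b, none of which passed. Over all 7824 genes 3903 lay above 0, with a median of −0.001. Of the marker lists on this scale, 2 of 14 follicle cell markers were higher and 6 lower (14.3% and 42.9%). Of 16 muscle sheath markers 0 were higher and 12 lower, and of 4 fat body markers 0 and 3. Among 17 germ line markers 2 were higher and 0 lower, and 0 of 3 hemocyte markers passed. Over all genes the shares were 11.4% and 16.8%. Whether the length trend comes from the cells or from the libraries was not tested.

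The 8 genes past the test after this subtraction were RpS21, RpL5, RpL32, RpS19a, RpL11, RpL13, RpS23 and RpL17. RpS21 was then at 1.17 (recomputed Wald test, adjusted p = 0.00103) and RpL32 at 0.91 (adjusted p = 0.0166). Both carriers of 5S ribosomal RNA were among them, RpL5 at 0.94 (adjusted p = 0.0265) and RpL11 at 0.79 (adjusted p = 0.0287). RpL5 had not passed as deposited, and its value rests on an annotated exonic length of 3835 bp for a protein of 299 amino acids. The other 7 had all passed as deposited.

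**Figure D5:**
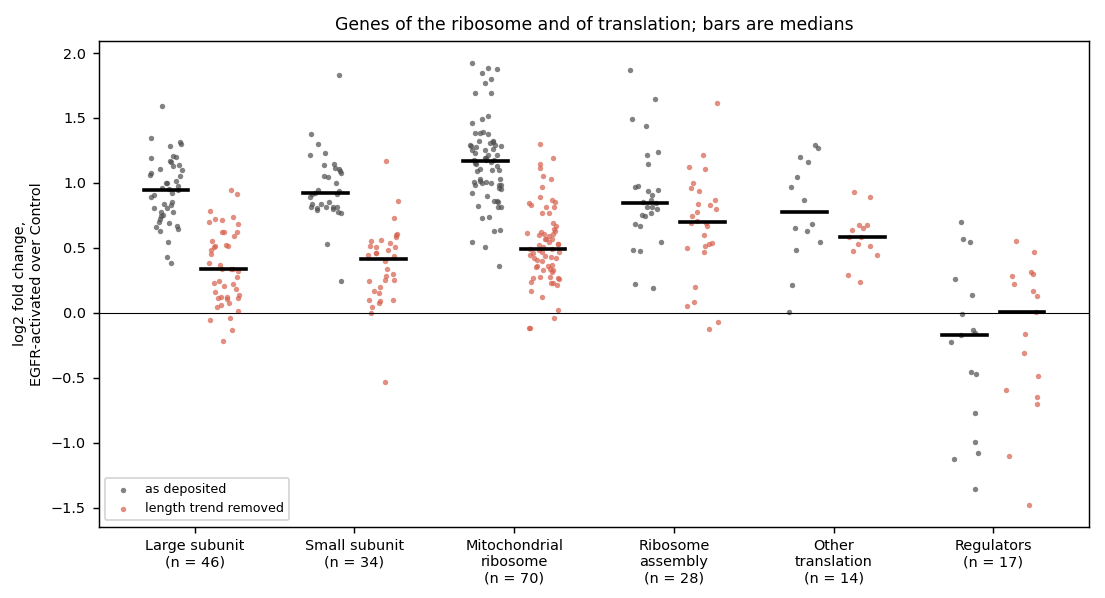
Log2 fold change (y axis, EGFR-activated over Control) of genes of the cytoplasmic ribosome, the mitochondrial ribosome, ribosome assembly, other translation genes and regulators, as deposited (grey) and after removal of the length trend (red); bars are medians. The medians of the cytoplasmic and mitochondrial ribosomal genes drop more with the removal than that of the assembly genes, 0.85 as deposited and 0.70 after it.

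Ribosomal genes whose symbols fall outside the pattern had values in the same range. The deposited log2 fold changes of RpLP0, RpLP1 and RpLP2, the proteins of the stalk that recruits translation factors, were 0.88 ± 0.34, 1.0004 ± 0.37 and 0.95 ± 0.34, and all 3 passed. The assembly factor gene RpLP0-like rose by 1.12 ± 0.30 (adjusted p = 0.000991). The gene sta, which encodes the small subunit protein RpSA, was at 0.65 ± 0.44 and did not pass (adjusted p = 0.246). As deposited 4 of these 5 passed, against 18.0% of all genes with an adjusted p called higher. With the length trend removed, 0 of the 5 passed, with a median of 0.30, against 11.4% of all genes higher.

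Mitochondrial ribosomal protein genes, whose products make a separate ribosome for the mitochondrial genome, were also higher. Of 71 of them 61 rose and 0 fell in the authors' deposited table, with a median of 1.16. After removal of the length trend, where 11.4% of all genes were higher and 16.8% lower, 16 of 70 (22.9%) were higher and 0 lower. The median of these mitochondrial genes was then 0.49. Their means were lower, with a median of 295, and their median SE was 0.30, against 0.34 for the cytoplasmic genes. The difference between these groups of genes was not tested.

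Genes that build the ribosome rose as well. Of 28 genes of ribosome assembly and RNA polymerase I, 20 rose (71.4%) and 0 fell, with a median of 0.85. Over all genes with an adjusted p, 18.0% were called higher and 17.5% lower. Nop56, a core protein of the particles that methylate ribosomal RNA, rose by 1.87 ± 0.28 (deposited adjusted p = 5.83e-10). Nlp, a nucleoplasmin, rose by 1.49 ± 0.22, hoip, which binds the box C/D snoRNAs, by 1.64 ± 0.29 and the RNA helicase gene pit by 1.21 ± 0.25. After removal of the length trend 18 of the 28 (64.3%) were higher and 0 lower, with a median of 0.70. The shares over all genes on that scale were 11.4% higher and 16.8% lower. The assembly genes are longer, with a median exonic length of 1854 bp.

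Of 14 other genes of the translation apparatus and its surroundings with a p-value, 10 rose and 0 fell, with a median of 0.77. This list holds elongation and initiation factors, nascent chain factors and the importin gene Fs(2)Ket; eIF-4B was listed at 0. Ef1gamma, a subunit of the elongation factor that recharges eEF1A, rose by 1.197 ± 0.25 (adjusted p = 2.24e-05), and Rack1, which sits on the small subunit, by 1.16 ± 0.27. The exchange factor gene eEF1delta rose by 1.29 ± 0.30 and bic, the beta subunit of the nascent polypeptide associated complex, by 0.97 ± 0.23. The poly(A) binding protein gene pAbp was at 0.01 ± 0.35 and did not pass. After removal of the length trend 4 of the 14 (28.6%) were higher and 0 lower, with a median of 0.58. All genes gave 11.4% higher and 16.8% lower on that scale.

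Among 17 genes known to act on ribosomal protein synthesis, 2 rose and 5 fell, with a median of −0.17 in the authors' deposited table. The shares called, 11.8% higher and 29.4% lower, stand beside 18.0% and 17.5% of all genes. The Myc gene dm, a driver of ribosome production, was at −0.47 ± 0.27 and did not pass (adjusted p = 0.158), while Mnt, which encodes the repressor that competes with Myc for Max, fell by 1.36 ± 0.27 (adjusted p = 5.18e-06). Thor, which encodes the inhibitor of cap-dependent translation 4E-BP, fell by 0.77 ± 0.29 (adjusted p = 0.0265), and larp, whose product binds messenger RNAs of the translation machinery, by 1.13 ± 0.30 (adjusted p = 0.00116). The kinase gene S6kII fell by 1.08 ± 0.23. Of promoter factors, Dref rose by 0.57 ± 0.18 (adjusted p = 0.00657) and Tbp by 0.70 ± 0.27, while Trf2, used at ribosomal protein promoters in place of the TATA-binding protein, fell by 0.99 ± 0.34 (adjusted p = 0.0137). The kinase genes Tor and S6k were at −0.15 ± 0.25 and −0.45 ± 0.30 and did not pass. After removal of the length trend the shares, 5.88% higher and 17.6% lower, were near the 11.4% and 16.8% of all genes or below them. Then 1 was higher (Dref, 0.56) and 3 were lower (Mnt, S6kII and Thor, at −1.10, −0.71 and −1.47), while Trf2, larp and Tbp no longer passed (−0.49, −0.65 and 0.32).

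Of 4 genes tied to the response to a shortage of ribosomal proteins, 3 fell, against 17.5% of all genes with an adjusted p. Xrp1, a transcription factor that flies with a Minute mutation induce, fell by 0.95 ± 0.27 (deposited adjusted p = 0.00213). CG6272, named Irbp18 in RefSeq, encodes its partner and fell by 0.97 ± 0.22, and Ilp8, a relaxin-like hormone gene that mature follicles also express, fell by 2.14 ± 0.23 (adjusted p = 1.24e-17). These 3 were also lower after removal of the length trend, at −0.67, −1.75 and −2.79, against 16.8% of all genes lower. Dif, an immune transcription factor, was at 0.06 ± 0.23.

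Features that the choice of members did not use were set beside the fold changes as a description. Of all genes with an adjusted p, 18.0% were called higher as deposited, and 20.8% of those whose mean was 50 or more. Of 31 genes for proteins shared by the ribosomes of all domains of life 21 rose, and of the other 43 genes 27 rose, at medians of 0.94 and 0.92, second copies left out. Introns of 26 members hold 66 snoRNA genes, which guide the modification of ribosomal RNA. Of these hosts 12 rose (46.2%), with a median of 0.84. Of 54 members without such a gene and with a mean of at least 50, 40 rose (74.1%), at a median of 0.99. After removal of the length trend 3 of 26 (11.5%) and 5 of 54 (9.26%) were higher, at medians of 0.35 and 0.34. Both shares were near the 11.4% of all genes higher on that scale. Hosts are longer, with a median exonic length of 1059 bp against 861 bp. By chromosome, 24 of 37 members rose on chromosome 2, 17 of 33 on chromosome 3 and 10 of 14 on the X chromosome, and RpS3A on chromosome 4 rose by 0.91 ± 0.33 in the authors' deposited table. Exons of 30 members overlap those of another annotated gene, among them RpL12 and RpL39, which overlap each other, and RpL3, RpL27 and RpL31. With the strand setting of the counting not given, such reads may be shared or set aside. Of 29 overlapping and 51 other members with a mean of at least 50, 18 and 34 rose, with medians of 0.89 and 0.95.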

How the data were processed

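Per the labels' protocols, RNA from follicle cells was isolated with RNAqueous-Micro, pulled down with oligo-dT and made into libraries with ScriptSeqv2. The submitters' processing notes name build BDGP5 and, without roles, the authors' tools TopHat2 2.0.10, HTSeq 0.6.1 and DESeq2 1.2.10. The authors' deposited table holds, per the file headers, a mean normalised count (a signal over the 4 libraries), a log2 fold change, its SE, the Wald statistic (a score) and p-values before and after adjustment. DESeq2 of that version, as used by the authors, shrinks fold changes by default, so those of low genes may be understated. Of 15687 rows 5 do not name a gene and were dropped; the row of non-unique alignments held 41.2% of the summed means. An adjusted p was given for 9409 of 12650 genes with a p-value, and the authors' test was used as deposited, since counts per library were not used here.

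Members and lists were chosen with earlier results of these data known. Named were all duplicated genes, the 5 largest and 5 smallest fold changes per subunit at a mean of at least 100, the 3 highest and 3 lowest means, genes of fixed roles, and up to 4 genes per list past the threshold; further genes of the regulator list, RpS6, sta, pAbp, Dif and the extremes per kb were added after their values were seen. Entries of lists were matched by symbol or by RefSeq synonym. Levels implied in each group are 2m·f/(1+f) and 2m/(1+f), where m is the mean and f the fold. Exonic lengths, overlaps, snoRNA genes and chromosomes came from the BDGP6 annotation by symbol or synonym (99.2% of genes whose mean was 50 or more); as builds differ, no coordinates are given. The length trend was a lowess curve (span 0.3, statsmodels 0.14.6, Python 3.11.15), and Wald p-values were readjusted by Benjamini-Hochberg. The curve was tested on simulated data with a straight trend and changed genes drawn without regard to length. Those data do not cover short genes that change together, so how much of such a change the curve takes up was not tested. What 1 read adds to a mean in each library was taken from the 4 lowest means shared by at least 100 genes. Columns that belong to other samples numbered 0. Promoter motifs and protein sequences were not analysed here. For 2 members the values are not reported singly here and they are not drawn in the plot of fold changes by gene, but they are in all counts and medians. Sums of marker lists without their most abundant gene were added after seeing the data.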

Additional observations from a re-analysis of the deposited data

How the results depend on the processing

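No paired analysis was possible because the table holds a comparison and no counts per library, and for the same reason no library was left out and no other normalisation, filter on counts or tool was run. The count of 52 members higher (29 large and 23 small subunit genes) was 30 (18 and 12) at an adjusted p under 0.01, and 8 (5 and 3) after removal of the length trend. Under the other settings, which were a threshold of 0.10, adjustment over all genes with a p-value, centring on the median of all genes (0.01), leaving out second copies and a mean of at least 50, the count lay between 42 and 67. The count of lower members was 0 under every setting run. The median of the large subunit minus that of the small subunit was 0.018, or 0.034, 0.028 and 0.024 without second copies, at a mean of at least 50 and as a mean weighted by the SE, and it turned to −0.081 after removal of the length trend; the cause was not tested, and no replicate error exists for this difference. No difference between copies moved by more than its SE. With 2 libraries per group, the SE of a single member limits what can be told apart.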

Other observations

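For the lowest members, whole reads in the 4 libraries could be recovered from the mean normalised count, each with a single solution. The libraries are not tied to groups here and are named by their size factors of 1.46, 1.16, 0.786 and 0.773. In that order RpS10a had 50, 20, 9 and 13 reads, 92 in all, and RpS19b had 27, 26, 10 and 9 reads, 72 in all. RpL22-like had 3, 2, 0 and 2 reads and RpL37b 2, 0, 0 and 1 read. The only read of RpS28-like lay in the library with the size factor of 1.16.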
